A study of Mus musculus with 12 samples.

Results

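Cells of the ovarian follicle are held together and coupled by 3 kinds of junction, and the genes of all 3 kinds were followed here through the ovulatory signal in mouse granulosa cells, which line the follicle and surround the oocyte. The genes were chosen by symbol: connexins (Gja to Gje), claudins, numbered cadherins, catenins, zonula occludens scaffolds (Tjp1 and Tjp3 were measured), occludin (Ocln) and the junctional adhesion molecules F11r, Jam2 and Jam3. Of 18194 genes tested on the arrays, 71 met this rule, namely 14 connexins, 24 claudins, 21 cadherins, 6 catenins and 6 others. RefSeq holds 91 protein-coding genes of these names, and 20 of them had no probe set used here.

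RNA was measured on 12 Affymetrix expression arrays, 3 in each of 4 groups. Ex6DEL mice lack exon 6 of Snf2l, the gene listed as Smarca1, which encodes an ISWI-type ATPase that moves nucleosomes. WT mice were their littermates. The deletion was made with Gata-1 Cre, a ubiquitous driver on a CD-1 background, acting on a loxP-flanked exon of 129Sv origin. It was then carried in the germline, without Cre, on 129SV, so that it was not limited to granulosa cells. All females were 24 to 26 days old and had been primed with the follicle-stimulating preparation PMSG (pregnant mare serum gonadotropin) at 5 IU. The groups named Ex6DEL 4 h and WT 4 h were given 5 IU of human chorionic gonadotropin (hCG), the ovulatory signal, 48 h after PMSG and were collected 4 h later. The groups named Ex6DEL 0 h and WT 0 h were collected 48 h after PMSG with no hCG. Each array carried cells of 5 mice, pressed out of punctured follicles and pooled. The labels do not say that replicate arrays hold independent pools, so p-values measure only the spread between these arrays, which may be technical.

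Gap junctions are channels built from connexins, through which granulosa cells share small molecules with each other and with the oocyte. Adherens junctions bind neighbours through cadherins, whose tails are tied to actin by β-catenin and α-catenin and are stabilised by p120-catenin. Tight junctions seal the space between cells with claudins, occludin and junctional adhesion molecules held by zonula occludens scaffolds. The ovulatory surge of luteinizing hormone, which hCG imitates, is known to close granulosa cell gap junctions before the oocyte resumes meiosis.

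Values are log2 intensities. The lowest value in the table was 2.21, a floor shared by many probe sets, and a gene with all 12 arrays within 1 log2 unit of it is called at the floor here. At the floor a change cannot be told from background. Fewer cells of a type and less RNA per cell cannot be told apart in such bulk samples.

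The arrays themselves differed in ways that touch the results below. Ex6DEL 0 h replicate 3, labelled as 0 h, carried the ovulatory genes Ptgs2 at 10.08 and Tnfaip6 at 12.57. The other 5 arrays of 0 h had 2.27 to 5.33 and 3.23 to 6.68, and the arrays of 4 h had 10.83 to 13.88 and 13.14 to 14.64. Its correlation with single arrays of 4 h reached 0.987 across genes, against 0.961 to 0.980 with its own group. Ex6DEL 0 h replicate 1 carried the highest summed level of 9 theca and stroma markers, at 16.97 on the log2 scale, against 12.94 and 14.30 on the other arrays of its group. The summed markers ran from 12.22 to 13.52 in Ex6DEL 4 h, from 12.86 to 14.06 in WT 4 h and from 12.68 to 13.97 in WT 0 h, and none of the 9 was at the floor. Smarca1 showed no lower signal in Ex6DEL, with a difference from WT of -0.04 at 4 h and 0.04 at 0 h (SE 0.48 each, adjusted p of limma 1 in both), and which part of the transcript its probes read was not used here.

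Most junction genes gave little or no signal in these cells. At the floor were 29 of the 71 (40.8%), against 31.1% of all genes. A further 19 repeated 1 value, within 0.01, on at least 6 arrays, which left 23 with fewer repeats or none. At the floor or so repeated were 48 (67.6%), against 43.4% of all genes. Above the median level of all genes (4.74) stood 16 (22.5%): Gja1, Gjc1 and Gja4 of the connexins, Cdh2, Cdh13 and Cdh11 of the cadherins, Ctnnb1, Ctnna1 and Ctnnd1 of the catenins, Cldn12, Cldn5 and Cldn34c1 of the claudins, and F11r, Jam2, Jam3 and Tjp1. The families differed in the share at the floor. There lay 10 of 14 connexins, 8 of 24 claudins, 8 of 21 cadherins and 2 of 6 catenins. A repeated value was held by 11 more claudins, 6 more cadherins, 1 more catenin and no further connexin. At the floor or so repeated were 71.4% of the connexins, 79.2% of the claudins, 66.7% of the cadherins and 50% of the catenins. Ocln was at the floor, with 2.21 to 3.02 over the 12 arrays. The zonula occludens scaffold Tjp3 ranged from 3.24 to 3.56 and Cldn11 from 2.22 to 3.56, the highest being Ex6DEL 0 h replicate 1.

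**Figure D1:**
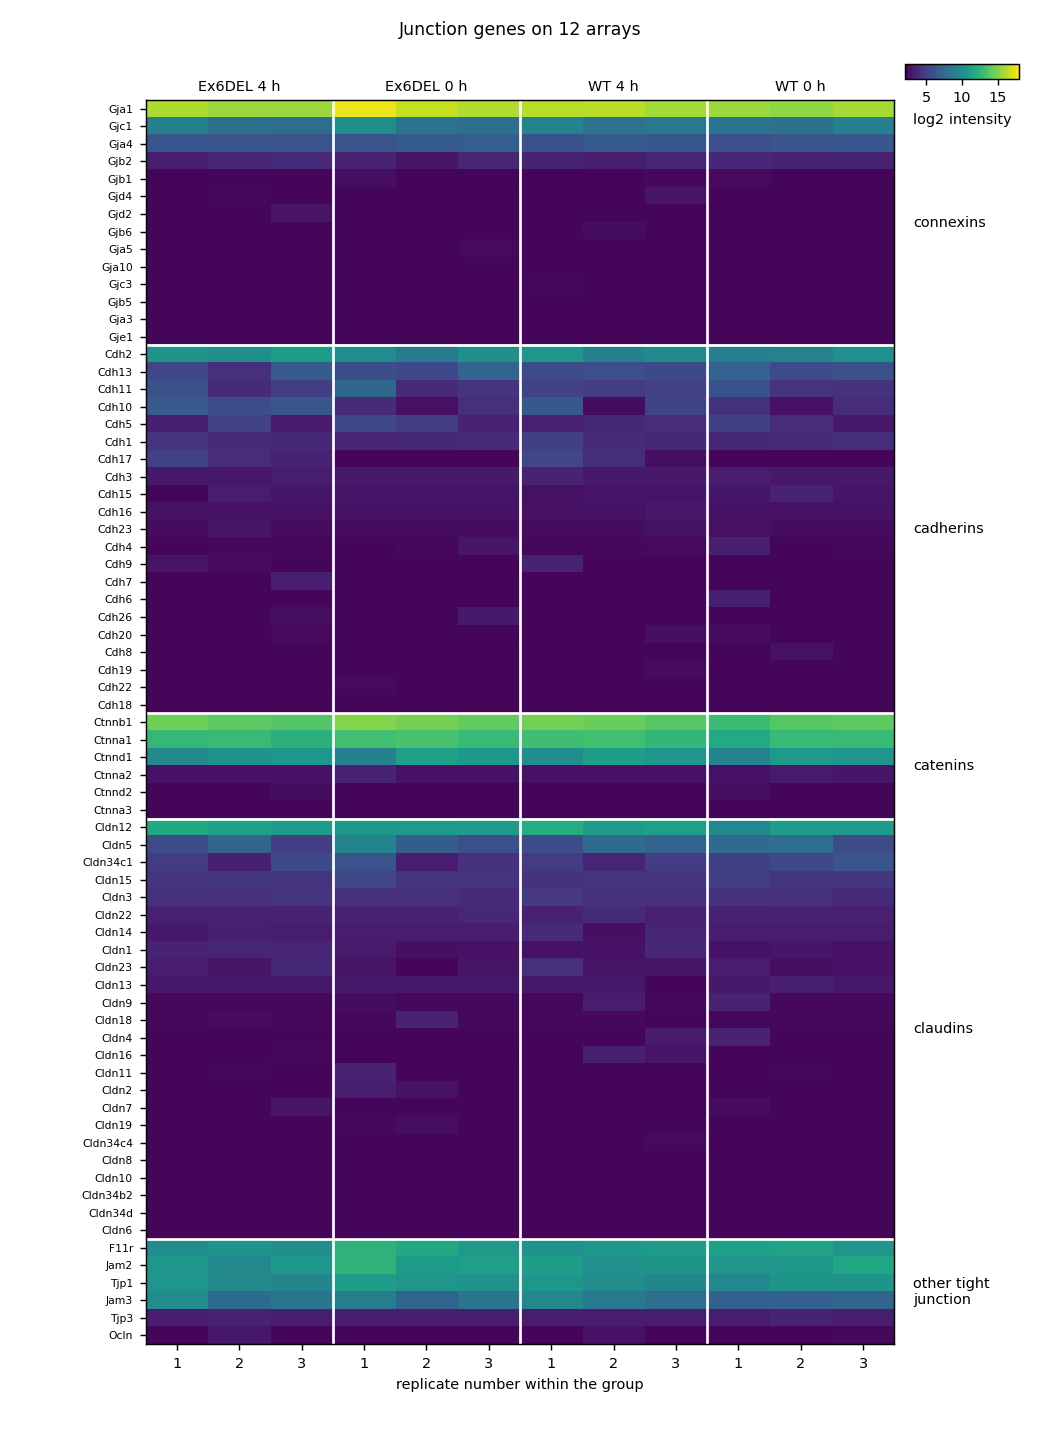
Log2 intensity (colour, 2 to 18) of the 71 junction genes in rows, by family, on the 12 arrays in columns, by group and replicate number. The 16 genes above the median level stand out at the top of their families, while 29 genes lie at the floor on every array.

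None of the 71 genes passed an adjusted p under 0.05 (limma, Benjamini-Hochberg over 18194 genes) in any of the 5 planned comparisons. Over all genes 2.17% were called for 4 h minus 0 h in Ex6DEL, 0.929% for the same contrast in WT, 0% for Ex6DEL minus WT at 4 h, 0.033% for Ex6DEL minus WT at 0 h and 0.011% for the difference between the hCG changes of the genotypes. At an unadjusted p under 0.05 stood 7 junction genes (9.86%) for the hCG change in Ex6DEL and 3 (4.23%) for that in WT, against 18.9% and 14.4% of all genes. The genotype comparison gave 1 such gene at 4 h and 3 at 0 h (1.41% and 4.23%, against 1.62% and 5.36% of all genes), and the difference between hCG changes gave 3 (4.23%, against 3.20%). The smallest adjusted p of limma among the junction genes was 0.0924 for the hCG change in Ex6DEL and 0.249 for that in WT. Under the alternatives tried, 0 to 2 junction genes were called for the hCG change in either genotype and 0 for the other 3 comparisons. A further comparison was added after the data had been seen, the mean of both genotypes' hCG changes, which sets 6 arrays against 6. It called 9.72% of all genes and 1 junction gene, Cdh17 (1.41%).

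Among the connexins, Gja1 carried the signal. It encodes connexin 43, the main gap junction protein between granulosa cells. Its promoter is shown together with that of F11r, the tight junction gene with the smallest p for the hCG change in Ex6DEL, since both genes had lower values at 4 h in Ex6DEL cells. Each stretch is the 250 bases before the annotated start, 5′ to 3′ on the plus strand (RefSeq, build GRCm38.p6, chr10:56377050-56377299 for Gja1 and chr1:171437311-171437560 for F11r). Capitals mark matches to TGANTCA (the AP-1 site), TGACG (the core of the CREB site) and CAGGTG (an E-box read by Snail and Zeb repressors), searched on both strands, with no overlap between matches.
Gja1: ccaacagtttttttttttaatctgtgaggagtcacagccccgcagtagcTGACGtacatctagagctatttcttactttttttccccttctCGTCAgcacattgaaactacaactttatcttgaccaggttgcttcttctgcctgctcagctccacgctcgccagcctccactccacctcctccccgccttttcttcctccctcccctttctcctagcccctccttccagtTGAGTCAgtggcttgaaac
F11r: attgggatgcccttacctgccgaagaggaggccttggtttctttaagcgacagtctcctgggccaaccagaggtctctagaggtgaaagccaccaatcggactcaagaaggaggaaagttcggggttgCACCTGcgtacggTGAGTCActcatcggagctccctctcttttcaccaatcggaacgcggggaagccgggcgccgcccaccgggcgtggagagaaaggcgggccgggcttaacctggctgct
The TGANTCA match began at -19 from the start in Gja1 and at -109 in F11r. Gja1 also held TGACG matches at -201 and -159, and F11r a CAGGTG match at -122. Among 32851 promoter windows of this length, 6.75% held TGANTCA, 17.8% TGACG and 17.2% CAGGTG. A match describes the letters and does not show a bound site.

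Gja1 had log2 intensities of 16.06, 15.57 and 15.62 on the Ex6DEL 4 h arrays, against 17.58, 16.61 and 16.11 on the Ex6DEL 0 h arrays. On the WT 4 h arrays it had 16.29, 16.37 and 15.77, against 15.62, 15.26 and 15.83 on the WT 0 h arrays. In Ex6DEL every 4 h array lay below every 0 h array, while the WT groups overlapped and the 3 Ex6DEL 0 h arrays all lay above the 3 WT 0 h arrays. The hCG change was -1.02 in Ex6DEL (SE 0.36, 95% interval -1.83 to -0.21, adjusted p 0.167) and 0.57 in WT (interval -0.24 to 1.38, adjusted p 0.560), both by limma. The difference between these changes, -1.59 (SE 0.50), had the smallest p among the junction genes in that comparison and an adjusted p of 0.871. All 6 probe sets of Gja1 had a negative hCG change in Ex6DEL (-1.43 to -0.78) and a positive one in WT (0.05 to 0.57).

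By group mean, the upper ends of the arrays ran in the same order as Gja1. With a mean of 16.06, Gja1 lies at this upper end itself, so the likeness is partly built in. The 99.9th percentile of all probe sets was 15.83, 15.56 and 15.38 in Ex6DEL 4 h, against 16.70, 16.06 and 15.40 in Ex6DEL 0 h. It was 15.99, 16.08 and 15.37 in WT at 4 h, against 14.76, 14.91 and 15.14 in WT at 0 h. In both, the group means were ordered Ex6DEL 0 h, WT 4 h, Ex6DEL 4 h and WT 0 h, from high to low. After quantile normalization, which gives all arrays 1 distribution, the Gja1 change was -0.52 in Ex6DEL (adjusted p 0.0456) and -0.37 in WT (adjusted p 0.134), with a difference of -0.15 between them. So the sign in WT, most of the gap between genotypes, and the size and call of the change in Ex6DEL depended on the scaling, while its negative sign was the same on both scales. For a gene of so high a rank, quantile normalization leaves little room to differ between arrays, so it cannot show which scale is right. Without Ex6DEL 0 h replicate 3 the change in Ex6DEL was -1.35 (adjusted p 0.0530), and without replicate 1 of that group it was -0.61 (adjusted p 0.369).

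The other connexins with signal had group means that lay closer together. Gjc1, another connexin gene, had 9.05, 7.92 and 7.73 in Ex6DEL 4 h, against 9.88, 8.09 and 7.92 in Ex6DEL 0 h. Its WT values were 9.17, 8.12 and 8.38 at 4 h, against 8.08, 8.04 and 9.06 at 0 h. Each group spread over at least 1 log2 unit and all 4 overlapped, so the hCG changes of -0.39 in Ex6DEL and 0.16 in WT (SE 0.60 each) were within that spread. The other Gjc1 probe set, with a mean of 7.32, had the other sign in Ex6DEL (0.16) and gave 0.83 in WT. Gja4, connexin 37, joins the oocyte to the granulosa cells around it. Its values were the most even of the junction genes above the median level, from 5.93 to 6.75 over the 12 arrays, with hCG changes of -0.25 in Ex6DEL and 0.14 in WT (SE 0.19 each). Gjb2, connexin 26, had 2.99 to 3.91, and the remaining connexins were at the floor.

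The cadherin with the clearest signal was Cdh2, N-cadherin, the classical cadherin of granulosa cells. It had 10.30, 9.94 and 10.78 in Ex6DEL 4 h, against 9.81, 8.53 and 10.04 in Ex6DEL 0 h. In WT it had 10.33, 9.04 and 9.61 at 4 h, against 8.90, 9.19 and 10.10 at 0 h. On this probe set the groups overlapped throughout, and the hCG change was 0.88 in Ex6DEL (interval -0.27 to 2.03) and 0.26 in WT (interval -0.89 to 1.41). The second Cdh2 probe set, with a mean of 9.24, gave 0.96 in Ex6DEL, where its groups overlapped, and 1.11 in WT. On it the WT 4 h arrays (9.73, 8.90 and 9.49) all lay above the WT 0 h arrays (7.93, 8.08 and 8.77). Cdh1, E-cadherin, stayed low, between 3.74 and 5.01, and Cdh5, the cadherin of endothelium, between 3.06 and 5.48. Cdh13, a cadherin anchored by lipid rather than by a membrane span, had 4.13 to 7.20, and Cdh11, a mesenchymal cadherin, 3.90 to 7.33. The top Cdh11 value belonged to Ex6DEL 0 h replicate 1, the array with the most theca and stroma signal.

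Cdh17 rose with hCG when both genotypes were averaged. It encodes a cadherin known from intestine and liver whose short tail binds no catenin. Cdh17 had 5.17, 4.01 and 3.51 in Ex6DEL 4 h, against 2.25, 2.21 and 2.22 in Ex6DEL 0 h. It had 5.44, 4.07 and 2.63 in WT at 4 h, against 2.24, 2.22 and 2.22 in WT at 0 h. All 6 arrays of 0 h were at the floor, Ex6DEL 0 h replicate 3 with its ovulatory genes included, and all 6 arrays of 4 h lay above them. In both genotypes replicate 1 was the highest array of 4 h. The mean change was 1.91 (SE 0.46, adjusted p 0.0354), made of 2.0 in Ex6DEL (adjusted p 0.140) and 1.82 in WT (adjusted p 0.249), all by limma. Since the 0 h values are at the floor, these sizes depend on where the floor lies. The call was not secure: with single arrays left out, the adjusted p ran from 0.0107 to 0.0806 and stayed under 0.05 for 2 of 12, WT 4 h replicates 1 and 3.

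Cdh10, a cadherin known from the nervous system, showed a like pattern with more spread. It had 6.58, 5.68 and 6.29 in Ex6DEL 4 h, against 3.94, 2.69 and 4.23 in Ex6DEL 0 h. It had 6.43, 2.52 and 5.20 in WT at 4 h, against 4.34, 2.77 and 4.03 in WT at 0 h. The Ex6DEL groups did not overlap, whereas WT 4 h replicate 2 lay below every WT 0 h array. The changes were 2.56 in Ex6DEL (SE 0.93, adjusted p 0.179) and 1.0 in WT (adjusted p 0.680). The 3 other probe sets of Cdh10 lay near the floor, and replicate 2 was the lowest array in all 4 groups. Over both genotypes the change was 1.78 (adjusted p 0.138), or 1.78 with an adjusted p of 0.0406 when the replicate number entered as a block.

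Of the 6 catenins 3 carried strong signal. Ctnnb1, β-catenin, had 14.45, 13.97 and 13.71 in Ex6DEL 4 h, against 15.01, 14.67 and 14.15 in Ex6DEL 0 h. It had 14.68, 14.34 and 13.85 in WT at 4 h, against 12.95, 13.79 and 14.01 in WT at 0 h. The hCG groups overlapped in both genotypes, with a change of -0.56 in Ex6DEL and 0.71 in WT (SE 0.36 each, adjusted p 0.473 and 0.424). Without replicate 1 of the 0 h group these were -0.36 and 0.39. Ctnna1, α-E-catenin, had 12.67, 12.80 and 12.30 in Ex6DEL 4 h, against 13.16, 13.39 and 12.85 in Ex6DEL 0 h. In WT it had 13.07, 13.13 and 12.59 at 4 h, against 11.79, 12.82 and 12.86 at 0 h. Its Ex6DEL groups did not overlap, at a change of -0.54 (adjusted p 0.399), and its WT groups did. Of its 3 other probe sets 1 lay at the floor, 1 gave -0.42 in Ex6DEL and 0.50 in WT, and 1, with a mean of 7.87, had the other sign in Ex6DEL (1.18, and 1.40 in WT). WT 0 h replicate 1 was the lowest of the 12 arrays for both Ctnnb1 and Ctnna1, and it also had the lowest 99.9th percentile. Ctnnd1, p120-catenin, had 8.95 to 11.10 with replicate 1 lowest in every group, and hCG changes of -0.11 in Ex6DEL and 0.30 in WT (SE 0.59 each). Ctnna2, the α-catenin of neurons, repeated 2.81 on most arrays.

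**Figure D2:**
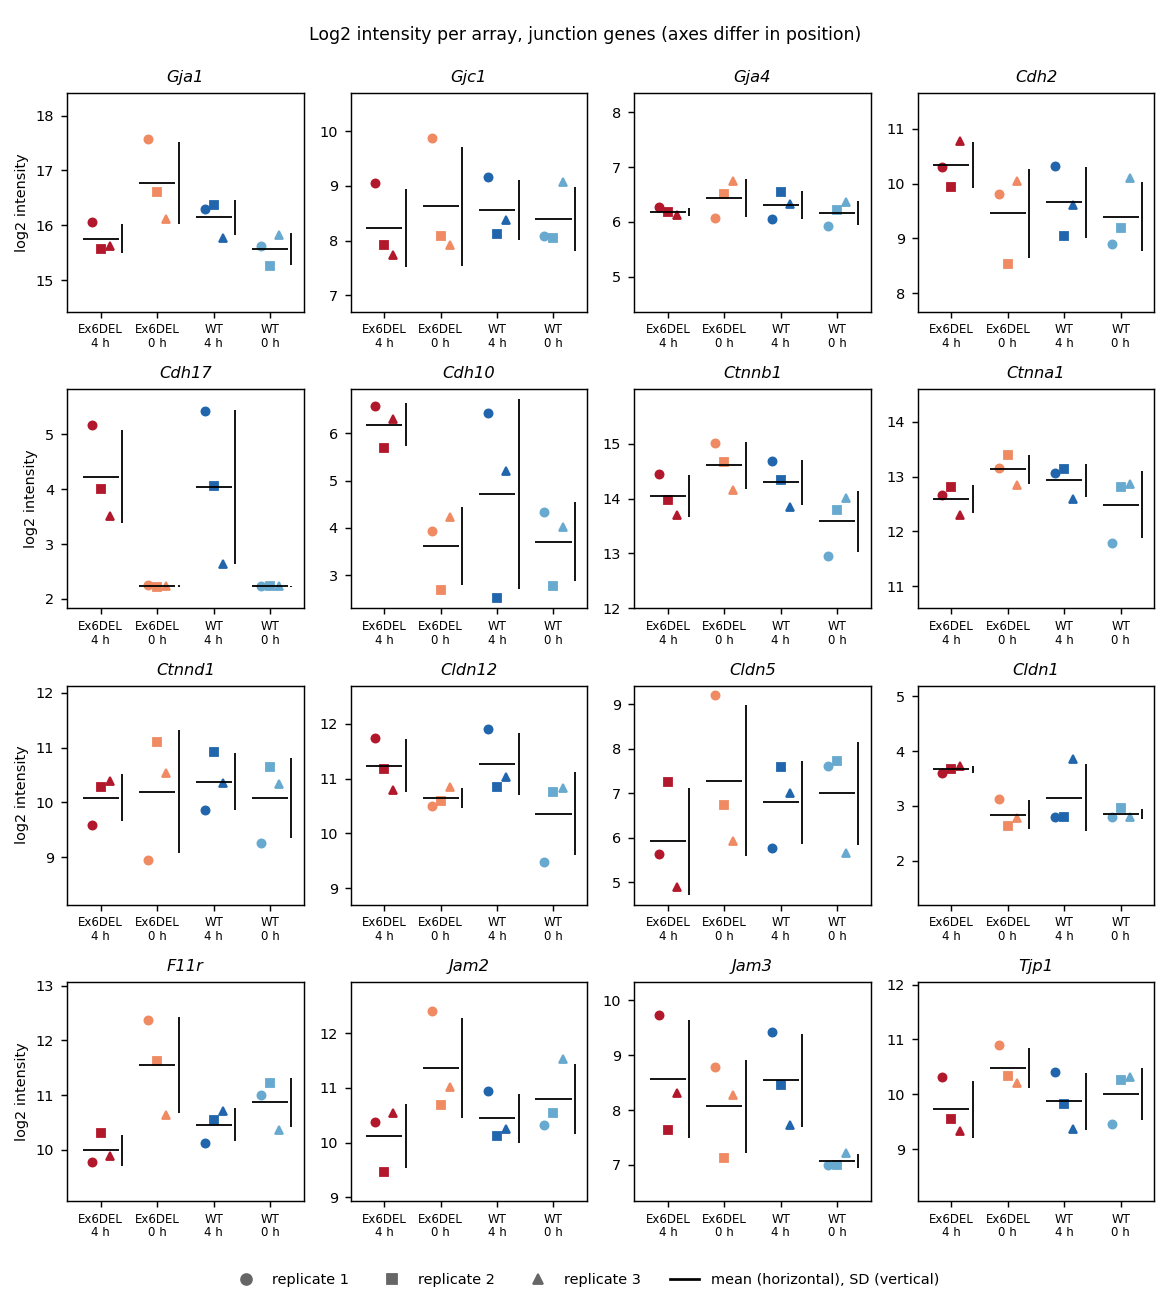
Log2 intensity per array of 16 junction genes in the 4 groups; circle, square and triangle are replicates 1, 2 and 3, the horizontal line is the mean and the vertical line the SD (n = 3 arrays). Cdh17 lies at the floor on all 0 h arrays and above it at 4 h, while most other genes overlap between groups.

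Of the tight junction genes, F11r came nearest to a call. F11r is junctional adhesion molecule A, which helps to place tight junctions and recruits polarity proteins. It had 9.78, 10.30 and 9.89 in Ex6DEL 4 h, against 12.37, 11.63 and 10.63 in Ex6DEL 0 h. It had 10.13, 10.54 and 10.71 in WT at 4 h, against 11.01, 11.23 and 10.37 in WT at 0 h. All Ex6DEL 4 h arrays lay below all Ex6DEL 0 h arrays, and the WT groups overlapped. The hCG change was -1.56 in Ex6DEL, a 2.94-fold lower intensity (SE 0.42, interval -2.51 to -0.60, adjusted p 0.0924), and -0.41 in WT (adjusted p 0.731). The difference between these changes, -1.15, had an adjusted p of 0.871. The lowest Ex6DEL 0 h array for F11r was replicate 3, the one with ovulatory genes, and the highest was replicate 1. Without replicate 3 the change was -2.01 and passed (adjusted p 0.0200), and without replicate 1 it was -1.14 (adjusted p 0.223). Taken over both genotypes it was -0.98 (adjusted p 0.0751). The other F11r probe set had a mean of 2.29, near the floor.

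The 2 related adhesion molecules did not run alike. Jam2, known from endothelium, had 10.39, 9.46 and 10.54 in Ex6DEL 4 h, against 12.41, 10.69 and 11.01 in Ex6DEL 0 h. It had 10.95, 10.12 and 10.26 in WT at 4 h, against 10.32, 10.54 and 11.54 in WT at 0 h. The Ex6DEL groups were apart and the WT groups overlapped, at changes of -1.24 (adjusted p 0.248) and -0.35 (adjusted p 0.875). Without Ex6DEL 0 h replicate 1 the change in Ex6DEL was -0.72. Jam3 had 9.74, 7.64 and 8.31 in Ex6DEL 4 h, against 8.79, 7.13 and 8.28 in Ex6DEL 0 h. It had 9.43, 8.46 and 7.73 in WT at 4 h, against 6.99, 6.99 and 7.22 in WT at 0 h. For Jam3 it was the WT groups that were apart, with a change of 1.47 (interval 0.02 to 2.92, adjusted p 0.340), against 0.49 in Ex6DEL, where the groups overlapped (adjusted p 0.759). Of the 5 Jam2 probe sets 4 had a negative change in Ex6DEL, and the range was -1.24 to 0.34. In WT 3 were negative and 2 positive, from -0.35 to 0.66. The second brightest, with a mean of 10.16, gave -0.21 in Ex6DEL, where its groups overlapped, and 0.66 in WT. Of 8 endothelial markers 3 were at the floor (Pecam1, Tie1 and Emcn). Their summed level was 8.95 to 9.94 in Ex6DEL 4 h, against 8.51 to 9.58 in Ex6DEL 0 h, and 9.24 to 9.64 on the WT arrays of 4 h, with 7.53 to 9.11 on those of 0 h. Kdr, the brightest of the 8 (mean 8.48), largely sets this sum, with hCG changes of 0.80 in Ex6DEL and 1.46 in WT. The median change over the 8 was 0.13 in Ex6DEL and 0.09 in WT.

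Tjp1, zonula occludens 1, ties these membrane proteins and connexin 43 to actin. It had 10.32, 9.55 and 9.32 in Ex6DEL 4 h, against 10.89, 10.34 and 10.21 in Ex6DEL 0 h. It had 10.41, 9.83 and 9.37 in WT at 4 h, against 9.46, 10.26 and 10.31 in WT at 0 h. The groups overlapped in both genotypes and the changes were -0.75 and -0.14 (SE 0.37 each).

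The claudin with the clearest signal was Cldn12, an atypical claudin. It had 11.74, 11.18 and 10.79 in Ex6DEL 4 h, against 10.50, 10.58 and 10.85 in Ex6DEL 0 h. It had 11.91, 10.85 and 11.03 in WT at 4 h, against 9.48, 10.75 and 10.83 in WT at 0 h. The WT groups were just apart and the Ex6DEL groups overlapped, with changes of 0.59 in Ex6DEL and 0.91 in WT (SE 0.42 each, adjusted p 0.495 and 0.383). The change in Ex6DEL was 0.34 without Ex6DEL 4 h replicate 1, and that in WT was 0.47 without WT 0 h replicate 1 and 0.58 without WT 4 h replicate 1. Cldn5, the claudin of endothelium, ranged from 4.89 to 9.20 and overlapped between all groups, the highest value being Ex6DEL 0 h replicate 1. Cldn34c1 had 4.84, 3.65 and 4.79 in WT at 4 h, against 5.04, 5.46 and 6.19 in WT at 0 h, which did not overlap (change -1.14, adjusted p 0.579), and 3.28 to 6.18 in Ex6DEL. Cldn1, a sealing claudin of epithelia, had 3.60, 3.68 and 3.74 in Ex6DEL 4 h, against 3.13, 2.63 and 2.78 in Ex6DEL 0 h. It had 2.80, 2.80 and 3.85 in WT at 4 h, against 2.80, 2.96 and 2.80 in WT at 0 h, so that the Ex6DEL groups were apart (0.83, adjusted p 0.136) and WT 4 h moved by 1 array. Cldn15 was at or near 4.47 on most arrays. Cldn2, a pore-forming claudin, was at 2.21 on 10 of 12 arrays, with 3.24 and 2.77 on Ex6DEL 0 h replicates 1 and 2.

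In Ex6DEL 4 junction genes were higher and 5 lower at 4 h with no array of 4 h within the range of 0 h (5.63% and 7.04%, against 5.13% and 14.5% of all genes). In WT they were 3 higher and 1 lower (4.23% and 1.41%, against 7.52% and 11.4%). Among the 16 genes above the median level, 13 had a negative hCG change in Ex6DEL with a median of -0.47, where all genes above that level had -0.34. In WT 6 of the 16 were negative with a median of 0.15, against -0.07 for all such genes. After quantile normalization these medians were -0.15 in Ex6DEL and -0.12 in WT, so the sign of the WT median turned with the scaling. The summed level of 7 granulosa markers (Amh among them at the floor) was 16.89 to 17.35 in Ex6DEL 4 h, against 17.82 to 18.79 in Ex6DEL 0 h, and 17.31 to 17.61 on the WT arrays of 4 h, with 17.12 to 17.75 on those of 0 h. Inha, the inhibin α subunit and the brightest of the 7 (mean 17.07), sets this sum. Its hCG change was -0.69 in Ex6DEL and 0.57 in WT, while the median change over the 7 was -2.88 in Ex6DEL and -0.71 in WT. The part of these markers in the junction gene changes was not tested.

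**Figure D3:**
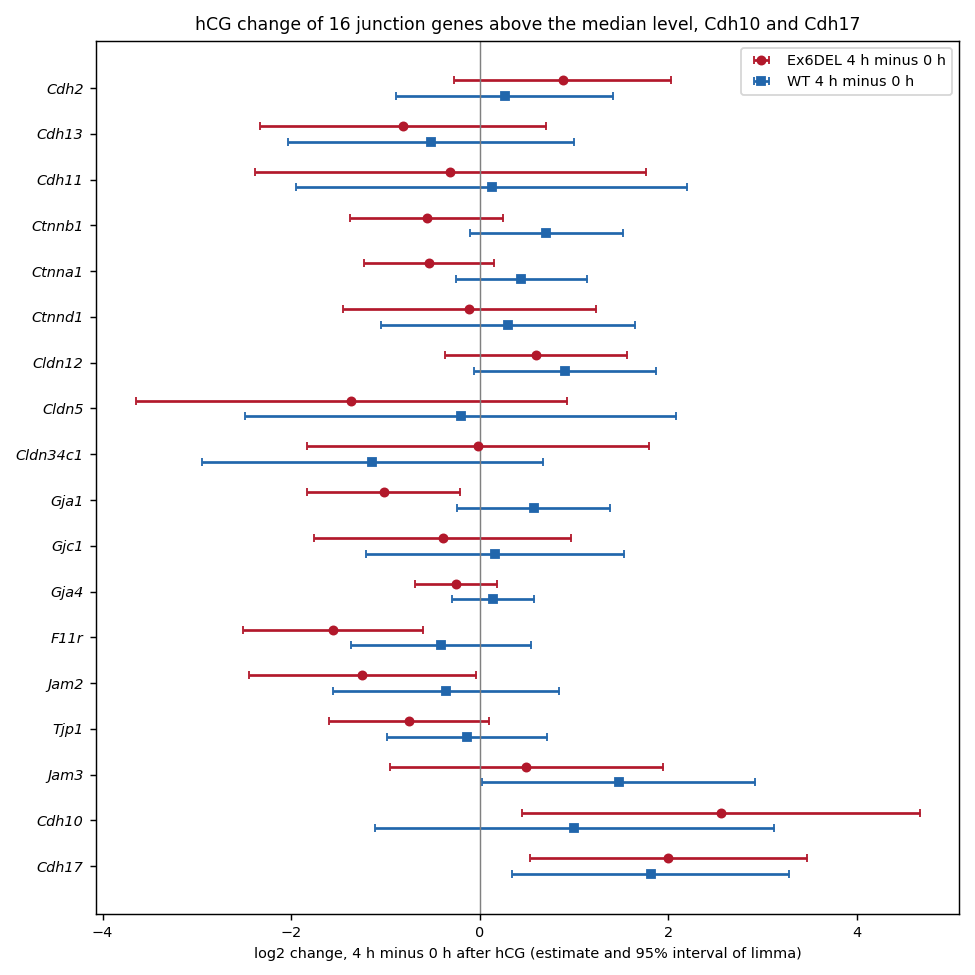
Log2 change from 0 h to 4 h after hCG with its 95% interval (limma) in Ex6DEL (red circles) and WT (blue squares) for the 16 junction genes above the median level, Cdh10 and Cdh17. Intervals of Gja1, F11r, Jam2, Cdh10 and Cdh17 exclude 0 in Ex6DEL and those of Jam3 and Cdh17 in WT, before adjustment over 18194 genes.

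Between genotypes at 0 h the largest differences among the 16 genes lay in Gja1 and Ctnnb1, with the per-array values given above. Gja1 was 1.20 higher in Ex6DEL (SE 0.36, interval 0.39 to 2.01, adjusted p 0.874), and Ctnnb1 was 1.02 higher (SE 0.36, interval 0.21 to 1.83, adjusted p 0.874). In both genes the 3 Ex6DEL 0 h arrays lay above the 3 WT 0 h arrays. With Cldn19, which was at the floor, these were the 3 junction genes apart and higher (4.23%, against 3.96% of all genes), and none was apart and lower (0%, against 2.45%). After quantile normalization the differences were -0.01 for Gja1 and -0.01 for Ctnnb1. Both genes lie at the upper end of the arrays (means 16.06 for Gja1 and 14.13 for Ctnnb1), where this scaling leaves little room for a difference. Of the 16 genes above the median level 14 were higher in Ex6DEL as deposited and 6 after quantile normalization. Without Ex6DEL 0 h replicate 3 the differences were 1.53 for Gja1 and 1.25 for Ctnnb1 (adjusted p 0.237 and 0.381), and without replicate 1 they were 0.79 and 0.82 (adjusted p 1 in both). The summed granulosa markers were also higher in Ex6DEL at 0 h, as given above. This sum is set by Inha, which itself lies at the upper end of the arrays (mean 17.07). The part of these markers in the genotype differences was not tested.

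**Figure D4:**
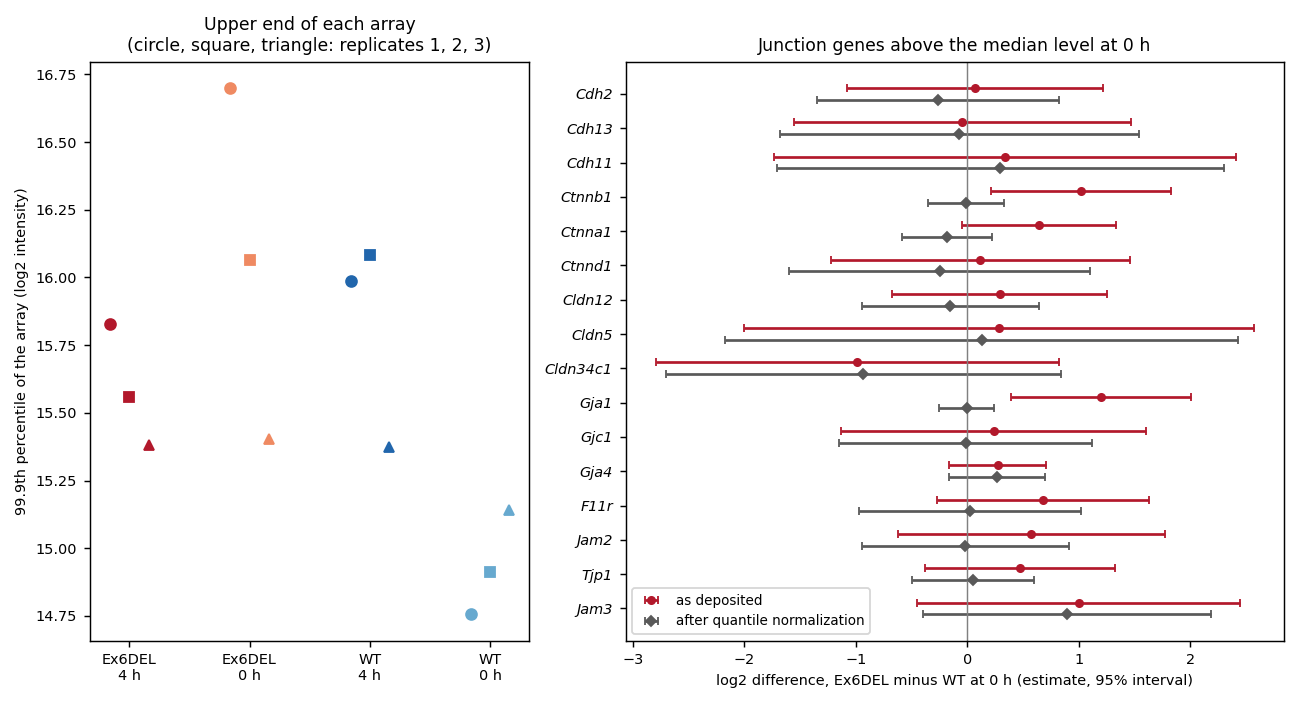
Left, the 99.9th percentile of each array (log2 intensity), which is highest on Ex6DEL 0 h replicate 1 and lowest on the WT 0 h arrays. Right, the difference Ex6DEL minus WT at 0 h with its 95% interval for the 16 junction genes above the median level, as deposited (red circles) and after quantile normalization (grey diamonds); the differences of Gja1 and Ctnnb1 go to -0.01 on the second scale.

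At 4 h no junction gene separated the genotypes (0 apart in either direction, against 0.962% higher and 2.02% lower of all genes). Gja1 differed by -0.39 (interval -1.20 to 0.42), Ctnnb1 by -0.25 (interval -1.06 to 0.56), F11r by -0.47 (interval -1.42 to 0.48) and Cdh2 by 0.68 (interval -0.47 to 1.83). These intervals leave room for differences of about the size seen within genotypes, so likeness is not shown. The 5 junction genes with the smallest p for a difference between the hCG changes were Gja1 (-1.59), Ctnnb1 (-1.27), Ctnna1 (-0.98), F11r (-1.15) and Cldn2 (-0.53), each with an adjusted p of 0.871 by limma. After quantile normalization Gja1 stood at -0.15 and F11r at -0.37, and Ctnnb1 (0.02) and Ctnna1 (0.08) had the other sign. For Gja1 and Ctnnb1, at the upper end of the arrays, this scaling leaves little room for a difference.

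Genes that work beside these families were followed in 5 further lists: desmosome proteins (13 measured), nectins and afadin (10), junction scaffolds and polarity proteins (32), pannexins (3) and transcriptional repressors of cadherins (7). The list of 32, called the scaffold list here, also holds membrane proteins such as Bves and Cxadr. In Ex6DEL 1 gene of the scaffold list rose and 1 of the nectin group fell. In WT 1 gene of the scaffold list rose, and the genotype comparisons called none. The mean of both genotypes called 5 genes of the scaffold list higher, and 1 lower in each of the desmosome, nectin and repressor lists. Over all genes the shares called were 2.17% in Ex6DEL, 0.929% in WT and 9.72% for the mean of both genotypes. The pannexins gave no call, with mean changes of -0.09 to 0.22. The median change in the same comparison was 0.00 for the scaffold list, -0.04 for desmosome genes, 0.32 for nectins and -0.15 for repressors. Over all genes it was -0.01, so the called genes do not stand for their lists.

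Bves rose with hCG in both genotypes, to 9.40, 9.40 and 9.57 in Ex6DEL 4 h, against 6.94, 6.89 and 7.24 in Ex6DEL 0 h. In WT it reached 9.85, 9.42 and 9.26 at 4 h, against 7.24, 6.62 and 6.76 at 0 h. Bves is a membrane protein of the Popeye family that binds cyclic AMP and has been described at tight junctions. Its change was 2.43 in Ex6DEL (SE 0.20, adjusted p 0.00307) and 2.64 in WT (SE 0.20, adjusted p 0.00112), with no overlap in either genotype. The difference between genotypes in this change was -0.21 (SE 0.28, adjusted p 0.886). The other Bves probe set, with a mean of 3.98, also rose in both, by 2.38 in Ex6DEL and 1.07 in WT. Its difference between genotypes had the other sign (1.31). The Bves change passed in Ex6DEL under all 21 alternatives and in WT under 20 of 21, the exception being the fit of only the groups compared (adjusted p 0.0717).

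Afdn fell in Ex6DEL. It encodes afadin, which ties nectins to actin. Afdn had 8.39, 7.75 and 7.77 in Ex6DEL 4 h, against 11.47, 10.19 and 9.48 in Ex6DEL 0 h. In WT it had 8.24, 8.21 and 9.04 at 4 h, against 9.38, 9.67 and 10.20 at 0 h. Neither genotype's groups overlapped. The change was -2.41 in Ex6DEL (SE 0.49, adjusted p 0.0470) and -1.25 in WT (adjusted p 0.288), a difference of -1.16 (adjusted p 0.871). With single arrays left out the adjusted p in Ex6DEL ran from 0.0182 to 0.155 and stayed under 0.05 for 1 of 12, Ex6DEL 0 h replicate 3. Over both genotypes the change was -1.83 (adjusted p 0.0161) and passed under all 20 alternatives.

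The other genes of the scaffold list called over both genotypes all rose. Cxadr, the coxsackie and adenovirus receptor of tight junctions, had 10.21, 8.60 and 8.60 in Ex6DEL 4 h, against 6.57, 5.37 and 6.91 in Ex6DEL 0 h. It had 10.29, 7.60 and 8.13 in WT at 4 h, against 6.05, 5.50 and 5.22 in WT at 0 h. No array of 4 h overlapped with one of 0 h, and the mean change was 2.97 (SE 0.54, adjusted p 0.0135). Vcl, vinculin, which reinforces adherens junctions under tension, had 14.84, 13.48 and 14.01 in Ex6DEL 4 h, against 13.50, 11.58 and 12.24 in Ex6DEL 0 h. It had 15.24, 13.98 and 13.57 in WT at 4 h, against 11.02, 11.02 and 11.36 in WT at 0 h. The Ex6DEL groups touched through replicate 1 at 0 h, and the mean change was 2.40 (SE 0.41, adjusted p 0.0119). Actn1, the actin crosslinker α-actinin 1, changed by 1.20 (adjusted p 0.0149), with 10.87 to 11.70 on the arrays of 4 h, against 9.21 to 10.61 on those of 0 h. Magi3, a scaffold of tight junctions, changed by 1.71 (adjusted p 0.0288), with 6.94 to 8.68 at 4 h, against 5.26 to 6.23 at 0 h. Both were apart over the 6 and 6 arrays. Vcl and Actn1 passed under all 20 alternatives, Cxadr under 19 and Magi3 under 13. The sizes varied over these alternatives, from 1.27 to 3.24 for Cxadr and from 1.33 to 2.66 for Vcl. They ran from 0.58 to 1.37 for Actn1 and from 0.66 to 1.87 for Magi3. The other Vcl probe set, with a mean of 2.50, gave 0.26.

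Beside afadin, Dsp and Zeb1 fell over both genotypes. Dsp, desmoplakin, which anchors intermediate filaments at desmosomes, had 7.52, 7.46 and 7.85 in Ex6DEL 4 h, against 8.67, 9.03 and 9.07 in Ex6DEL 0 h. It had 7.48, 7.88 and 7.62 in WT at 4 h, against 7.84, 9.53 and 9.50 in WT at 0 h. Only WT 0 h replicate 1 lay among the arrays of 4 h, and the change was -1.31 (adjusted p 0.0272), or -1.59 without that array (adjusted p 0.00189). Zeb1, a repressor of Cdh1, had 8.19, 9.26 and 8.17 in Ex6DEL 4 h, against 9.09 to 10.51 in Ex6DEL 0 h. It had 8.98, 8.67 and 8.88 in WT at 4 h, against 9.74, 9.63 and 9.39 in WT at 0 h. Ex6DEL 0 h replicate 3 lay among the arrays of 4 h, and the change of -1.03 (adjusted p 0.0491) was -1.23 without it (adjusted p 0.0149). Dsp passed under 10 of 20 alternatives and Zeb1 under 8. With single arrays left out, the adjusted p of limma for Dsp reached 0.0683 and stayed under 0.05 for 3 of 12. For Zeb1 it reached 0.116 and stayed under 0.05 for 2 of 12. The Cdh1 change over both genotypes was 0.26 (adjusted p 0.557).

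**Figure D5:**
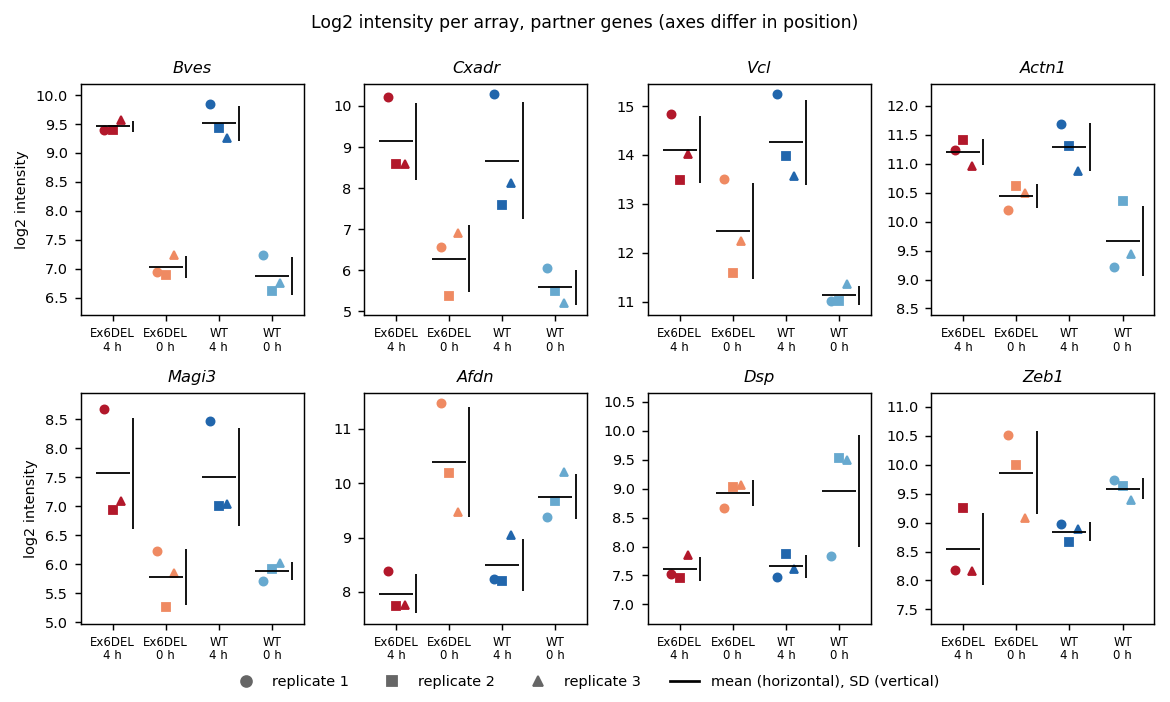
Log2 intensity per array of 8 genes from the further lists in the 4 groups; circle, square and triangle are replicates 1, 2 and 3, the horizontal line is the mean and the vertical line the SD (n = 3 arrays). Bves, Cxadr, Vcl, Actn1 and Magi3 are higher at 4 h than at 0 h, and Afdn, Dsp and Zeb1 lower, in both genotypes.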

How the data were processed

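Granulosa cell RNA of 12 arrays in 4 groups of 3 was analysed from the deposited table of log2 intensities, which the authors made with GCRMA, per the submitters' processing notes. The table's scale was read from its values (2.21 to 18.18). GCRMA corrects background by probe sequence and pulls dim probe sets to a common floor, which hides change there. Of 45101 probe sets, 34958 had 1 gene symbol in the platform annotation and were used. The 932 with several symbols and 9211 not listed were not used here. Each of 18194 genes was represented by its probe set with the highest mean.

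All 12 arrays entered 1 linear model of 4 group means (limma 3.58.1, R 4.3.3) with moderated errors (8 residual and 0.626 prior degrees of freedom), checked on simulated data. The 5 comparisons were the hCG change in each genotype, Ex6DEL minus WT at 4 h and at 0 h, and the difference of the hCG changes. Tests were two-sided with Benjamini-Hochberg adjustment over all genes, and a call is an adjusted p under 0.05. The members, gene lists and tests were chosen with earlier results of these data known.

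Genes were named by rule: called members, the 4 highest means of a family, at least 2-fold changes without overlap of arrays, the 5 smallest p for the difference of hCG changes, and for the further lists the called genes and the 2 with the smallest p. Other names were chosen after their values were seen. The replicate numbers were not taken to pair the arrays. Over 18 same-numbered pairs the correlation of deviations from the group means ran from -0.31 to 0.66 and was over 0.1 in 11, among them the 3 between Ex6DEL 4 h and 0 h (0.14 to 0.35). Alternatives were other scalings, the mean of all probe sets, genes above the median level only, trend and robust settings, array weights, the groups compared only, the replicate block, an adjusted p under 0.01, and arrays left out. The number of arrays limits the precision. No 2 arrays were identical (pairwise correlation 0.926 to 0.994 across genes).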

Additional observations from a re-analysis of the deposited data

How the results depend on the processing

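No junction gene was called for Ex6DEL minus WT at 4 h or at 0 h, or for the difference of hCG changes, under any alternative run. For the hCG change in Ex6DEL the count went from 0 to 1 after quantile normalization (Gja1), after a shift of all arrays to 1 median (F11r) and with genes above the median level only (F11r). It was 2 with both Ex6DEL 0 h replicate 3 and WT 0 h replicate 1 removed, and 0 to 2 with single arrays left out (2 without Ex6DEL 0 h replicate 3, Cldn2 and F11r; 1 without WT 4 h replicate 3, Cldn1). For WT it was 2 with array weights (Cdh17 and Cldn16) and 0 to 1 with single arrays left out (Cldn16 without WT 4 h replicate 1). For the mean of both genotypes, added after the data had been seen, it was 2 after quantile normalization, the median shift and array weights, 2 without both arrays named above, 0 at an adjusted p under 0.01, and 0 to 2 with single arrays left out. It was 0 without any 1 of the Ex6DEL 4 h arrays, Ex6DEL 0 h replicates 1 and 2, or the WT 0 h arrays, and 2 without Ex6DEL 0 h replicate 3, WT 4 h replicate 1 or WT 4 h replicate 3. With the replicate number as a block the counts stayed at 0 in the 5 planned comparisons and rose to 2 (Cdh10 and Cdh17) for the mean of both genotypes; 9 of 12 arrays correlated best with their own number, a hint from the data only.

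Some changes of single genes turned sign. After quantile normalization these were Gja1 in WT (-0.37), Ctnnb1 in WT (-0.046), the genotype differences at 0 h of Gja1 (-0.0077) and Ctnnb1 (-0.012), and the differences of hCG changes of Ctnna1 (0.084) and Ctnnb1 (0.017). With the mean of all probe sets they were Ctnna1 in Ex6DEL (0.054) and Jam2 in WT (0.11). With single arrays left out, Jam3 in Ex6DEL ran from -0.10 (without Ex6DEL 4 h replicate 1) to 0.96, Cldn1 in WT from -0.049 (without WT 4 h replicate 3) to 0.48 and Jam2 in WT from -0.61 to 0.015 (without WT 0 h replicate 3). None of these passed the threshold. The cause was not tested. Of the other values recomputed for named genes, 1042 kept their direction and side of the threshold, 39 came to pass it and 56 no longer passed it. Genes near the floor and the 3 arrays per group set the limit of what could be seen.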

Other observations

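Of the marker lists, granulosa markers were the only one with calls. In Ex6DEL the follicle-stimulating hormone receptor Fshr, the inhibin subunit Inhbb and the steroid enzyme Hsd17b1 fell with hCG (3 of 7 measured, against 2.17% of all genes called), in WT 0 of 7 were called (0.929% of all genes), and over both genotypes the same 3 genes were called lower (9.72% of all genes). The lists for oocyte (11 measured), theca and stroma (9), endothelium (8), ovarian surface epithelium (8), leukocytes (9) and red blood cells (3) had no call in any comparison. The oocyte list was highest on Ex6DEL 0 h replicate 1, at a summed 14.31, against 11.63 to 13.18 on the other 11 arrays.

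Among genes near the junction families that were not called, Pvr, a nectin-like adhesion molecule, had 11.16, 9.64 and 10.58 in Ex6DEL 0 h, against 9.03, 8.45 and 8.17 in WT 0 h, without overlap (1.91, adjusted p 0.630). Its hCG change was 0.29 in Ex6DEL and 1.87 in WT (adjusted p 0.818 and 0.0884). Zeb2, a repressor related to Zeb1, moved the other way from it, with a change of 1.66 over both genotypes (adjusted p 0.0516). Snai2, a repressor of the Snail family, had -0.59 (adjusted p 0.0608). Jup, plakoglobin, a catenin shared by desmosomes and adherens junctions, had -1.06 (adjusted p 0.0612). Cadm3, a nectin-like adhesion molecule of neurons, had -0.77 in Ex6DEL (adjusted p 0.116), and Dsc3, a desmosomal cadherin, was at 2.21 to 2.22 on every array but Ex6DEL 4 h replicate 2 (3.43). Panx1, the pannexin with signal, had hCG changes of 0.01 in Ex6DEL and 0.43 in WT (SE 0.37 each).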
